A study of Homo sapiens with 9 samples.

Results

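Pancreatic tumour surface antigens are proteins on the outer face of pancreatic ductal adenocarcinoma (PDAC) cells that serve as serum markers or as targets of antibodies. The 9 genes described here were taken by symbol from a table of 42717 genes, and all 9 were found in it. They were CEACAM1, CEACAM5, CEACAM6, CEACAM7 and CEACAM19 of the carcinoembryonic antigen (CEA) family, the mesothelin gene MSLN, the prostate stem cell antigen gene PSCA, the receptor gene GPRC5A and the tetraspanin gene TSPAN1. RNA-seq had been performed on 3 libraries for each of the lines S2-007, S2-020 and also S2-028, human PDAC cell lines that are sublines of SUIT-2 and were kept untreated in DMEM with fetal bovine serum. The study set S2-028, which carries maspin in the cytoplasm, against S2-007, which carries it in nucleus and cytoplasm, and the comparisons with S2-020 were added here from the labels. Each maspin pattern is represented by 1 line, and the sources do not say whether the 3 libraries of a line came from separate cultures, so the p-values measure the spread between these libraries, which may be technical. In bulk RNA, fewer cells that express a gene and less RNA per cell cannot be told apart.

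The CEA family consists of immunoglobulin-like adhesion molecules. CEACAM5 (CEA itself), CEACAM6 and CEACAM7 are held in the membrane by a glycosylphosphatidylinositol (GPI) anchor, whereas CEACAM1 and CEACAM19 cross it, and CEACAM1 carries inhibitory signals through its cytoplasmic tail. Mesothelin and PSCA are GPI-anchored as well. Mesothelin binds MUC16 (CA125), PSCA belongs to the LY6/uPAR family, GPRC5A is an orphan G protein-coupled receptor first found as a retinoic acid-induced gene, and TSPAN1 is a tetraspanin, a protein with several membrane passes that organizes others in the membrane.

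The total count per library lay between 60328748 and 86253923, and levels are given as CPM, counts scaled to the library total with TMM factors. SERPINB5, the maspin gene, had a mean normalized CPM of 211.5 ± 9.10 (SD, n = 3) in S2-007, 6.55 ± 0.428 in S2-020 and 27.7 ± 2.75 in S2-028. All 10 markers of ductal epithelium were detected in each line, with a summed CPM of 9756 to 10270 in S2-007, 4594 to 5701 in S2-020 and 15400 to 18010 in S2-028. For other cell types, the acinar markers summed to 0.321 to 1.43 CPM, with AMY2A at 0 in every library and CELA3A at 22 to 81 reads. The neutrophil markers summed to less than 1 CPM in each line (0.328 to 0.990), and the leukocyte marker PTPRC lay at 0.186 to 0.301 CPM on average, but LYZ and CD68 of the same list had their highest levels in S2-007. LYZ, a secreted enzyme, had 332 ± 37.8 CPM there and 2.12 to 2.57 in the other lines, and CD68 had 41.0 ± 2.52 CPM there, 7.83 ± 0.641 in S2-020 and 10.4 ± 0.849 in S2-028. The part of these markers in the results was not tested.

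The 250 bases before the start sites of CEACAM5, CEACAM6, CEACAM7 and CEACAM1 are shown because these related genes lie on 1 chromosome and had unlike mRNA levels, with CEACAM6 high in S2-028, CEACAM5 and CEACAM1 low there, and CEACAM7 near the floor in every line. CEACAM7, CEACAM5 and CEACAM6 lie in this order on chromosome 19, 20.4 kb and 25 kb apart, and CEACAM1 lies a further 735 kb away. The sequences are those of RefSeq on GRCh38.p14, read 5′ to 3′ on the strand of each gene (chr19:41708376-41708625 plus strand for CEACAM5, chr19:41755280-41755529 plus strand for CEACAM6, chr19:41688271-41688520 minus strand for CEACAM7 and chr19:42528482-42528731 minus strand for CEACAM1). Capitals mark matches to the motifs searched on both strands.
CEACAM5: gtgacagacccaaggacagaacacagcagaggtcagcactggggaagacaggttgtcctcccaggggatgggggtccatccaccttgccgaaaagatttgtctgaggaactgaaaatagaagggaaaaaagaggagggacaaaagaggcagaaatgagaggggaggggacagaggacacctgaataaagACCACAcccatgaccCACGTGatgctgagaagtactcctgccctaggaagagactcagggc
CEACAM6: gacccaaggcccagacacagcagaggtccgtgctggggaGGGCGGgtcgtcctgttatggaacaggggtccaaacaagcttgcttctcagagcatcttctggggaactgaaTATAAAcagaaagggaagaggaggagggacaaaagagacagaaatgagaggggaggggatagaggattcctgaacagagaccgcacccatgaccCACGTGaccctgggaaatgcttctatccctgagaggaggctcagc
CEACAM7: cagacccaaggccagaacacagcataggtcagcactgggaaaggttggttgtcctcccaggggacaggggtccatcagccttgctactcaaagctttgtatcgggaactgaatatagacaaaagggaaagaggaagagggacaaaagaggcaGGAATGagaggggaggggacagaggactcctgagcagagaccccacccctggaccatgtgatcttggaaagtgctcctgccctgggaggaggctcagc
CEACAM1: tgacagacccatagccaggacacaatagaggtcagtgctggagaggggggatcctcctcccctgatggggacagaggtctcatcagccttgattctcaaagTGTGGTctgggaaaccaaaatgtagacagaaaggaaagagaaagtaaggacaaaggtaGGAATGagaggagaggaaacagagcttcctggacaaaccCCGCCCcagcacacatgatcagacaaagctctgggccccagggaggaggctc
Aligned over 242 bases, the CEACAM5 and CEACAM6 sequences were 78.5% identical, and CEACAM5 and CEACAM7 were 84.4% identical over 244 bases. CEACAM1 was 72% to 75.8% identical to the other 3. The E-box CACGTG started 46 bases before the start site of CEACAM5 and 45 bases before that of CEACAM6, and was in 6.34% of 35116 promoters of this length. It was in neither the CEACAM7 nor the CEACAM1 sequence. Counted from its start site, CEACAM6 also held the letters of a TATA box (TATAAA, 10.7% of promoters) at -139 and a GC box (GGGCGG, 42.6%) at -211. CEACAM5 and CEACAM1 held a RUNX site (TGTGGT, 11%), CEACAM1 a GC box, and CEACAM7 and CEACAM1 a TEAD site (GGAATG, 11.9%). The CCAAT box (CCAAT, 32%), AP-1 site (TGANTCA, 6.57%), forkhead site (TGTTTAC, 2.98%) and ETS site (CCGGAA, 14.5%) were not matched in any of these sequences. These matches describe letters and not bound sites. TSPAN1 had an entry too, which held none of the 9 motifs and is not shown, and MSLN, PSCA, GPRC5A and CEACAM19 had none.

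**Figure D1:**
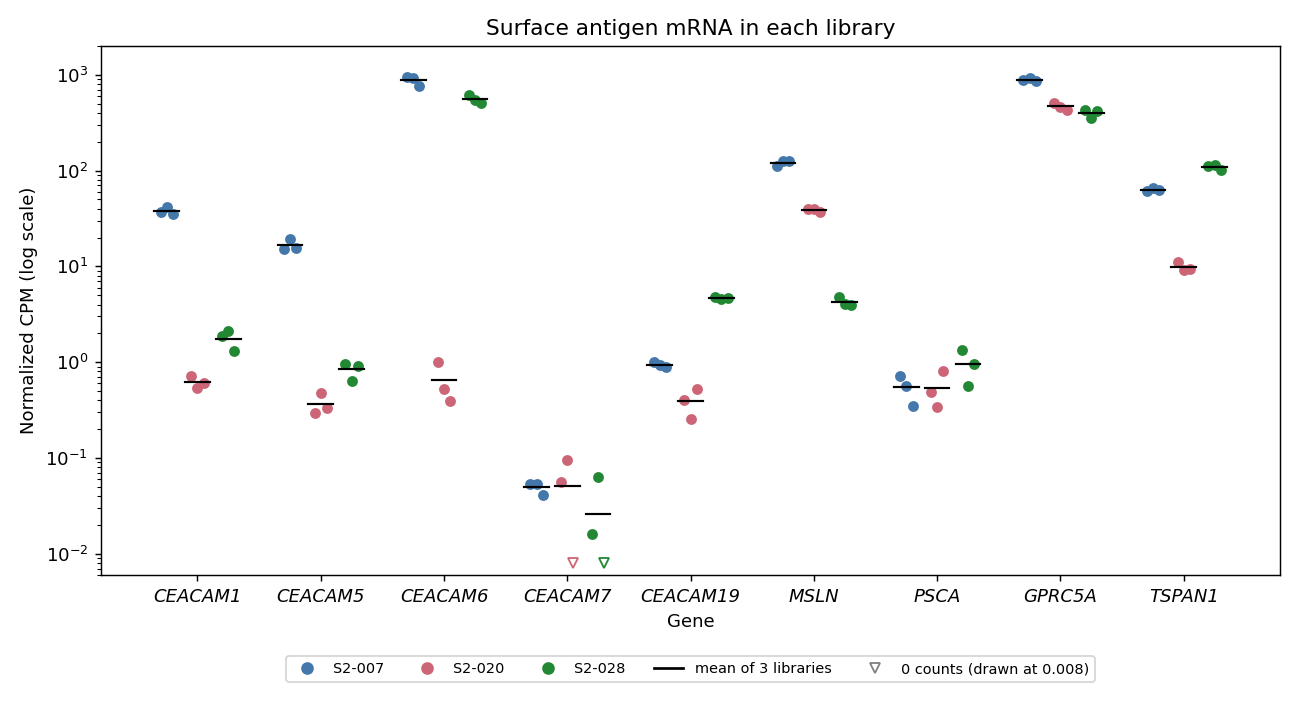
Normalized CPM (log axis) of the 9 genes in each library, with points for libraries, bars for the mean of 3 and open triangles for libraries with 0 counts. CEACAM6 sits between 756 and 947 CPM in S2-007, between 512 and 619 in S2-028 and at 1.02 or less in S2-020, whereas the points of PSCA overlap between all lines.

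CEACAM6 showed the widest range of the 9 genes. Its normalized CPM was 947, 933 and 756 in the S2-007 libraries, 1.02, 0.529 and 0.3903 in the S2-020 libraries and 619, 540 and 512 in the S2-028 libraries. No line overlapped another, and S2-020 was almost without this mRNA, with 28 to 73 reads per library against 55690 to 70909 in S2-007. The log2 fold change was -10.45 in S2-020 against S2-007 (standard error 0.169, edgeR adjusted p = 7.92e-20) and 9.76 in S2-028 against S2-020 (standard error 0.153, edgeR adjusted p = 1.53e-19). By size of the change, CEACAM6 was number 4 of 26657 genes tested in S2-020 against S2-007 and number 12 of 26031 in S2-028 against S2-020. S2-028 differed far less from S2-007, at -0.66 on the log2 scale (standard error 0.0831, edgeR adjusted p = 1.54e-06), just past the fold threshold of about 1.5. When a 1.5-fold change was taken as the null, this last difference was not called (edgeR adjusted p = 0.421).

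CEACAM5 had 15.2, 19.4 and 15.4 CPM in S2-007, 0.292, 0.481 and 0.335 in S2-020 and 0.966, 0.642 and 0.918 in S2-028. It was low in both S2-020 and S2-028, where each library held 21 to 60 reads, against 1134 to 1447 in S2-007. The log2 fold changes against S2-007 were -4.30 in S2-028 (standard error 0.178, edgeR adjusted p = 3.52e-14) and -5.51 in S2-020 (standard error 0.186, edgeR adjusted p = 4.17e-15). Between S2-028 and S2-020 it was 1.18 (standard error 0.402, edgeR adjusted p = 0.0238), and the libraries did not overlap. That last call was lost without S2-028 replicate 1 or 3 (edgeR adjusted p = 0.0872 and 0.0696) and without S2-020 replicate 1 or 3 (0.0800 and 0.0665), as well as against a 1.5-fold null (0.163).

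CEACAM1 had the same order of lines as CEACAM5. Its libraries had 37.2, 41.3 and 35.3 CPM in S2-007, 0.710, 0.541 and 0.613 in S2-020 and 1.87, 2.11 and 1.31 in S2-028, without overlap between lines. The log2 fold change was -4.42 in S2-028 (standard error 0.139, edgeR adjusted p = 3.96e-16) and -5.97 in S2-020 (standard error 0.128, edgeR adjusted p = 4.14e-18), each against S2-007. S2-028 was above S2-020 by 1.51 (standard error 0.294, edgeR adjusted p = 0.000304). The order S2-007, S2-028, S2-020 thus held for CEACAM1, CEACAM5 and CEACAM6, but the sizes of the steps were not alike.

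The reads of CEACAM6 per read of CEACAM5, a ratio not corrected for gene length, were 62.2, 48.0 and 49.1 in the S2-007 libraries and 640, 841 and 557 in those of S2-028. In S2-020 they were 3.48, 1.10 and 1.17. The log2 ratio was 3.67 higher in S2-028 than in S2-007 and 5.00 lower in S2-020 than in S2-007 (two-sided exact permutation test, p = 0.1 for each, the smallest that 3 libraries against 3 allow). Relative to CEACAM1, CEACAM6 had 21.4 to 25.5 reads per read in S2-007, 255 to 390 in S2-028 and 0.636 to 1.43 in S2-020. The reads of CEACAM1 per read of CEACAM5 overlapped between all lines, at 2.29 ± 0.159 in S2-007 (SD, n = 3), 1.80 ± 0.653 in S2-020 and 2.22 ± 0.964 in S2-028. The paralogs share sequence, since 16.5% of the 31-base words of CEACAM5 transcripts, 14.8% of those of CEACAM6 and 8.81% of those of CEACAM1 occur in other genes, and CEACAM5 and CEACAM6 share 4.68% and 6.39% of theirs with each other. Whether reads were assigned to the wrong paralog was not tested.

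**Figure D2:**
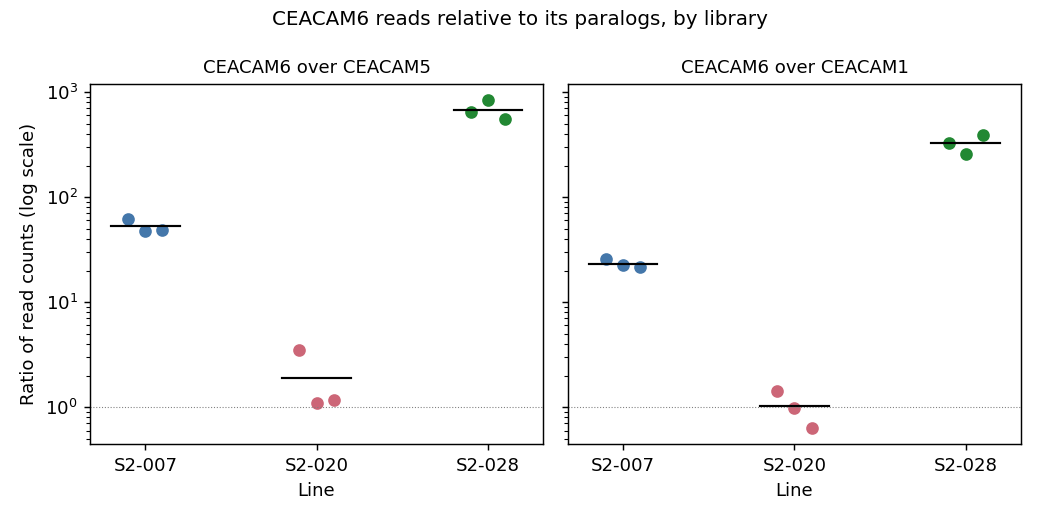
Ratio of CEACAM6 read counts to those of CEACAM5 (left) and CEACAM1 (right) on a log axis, with points for libraries and bars for the mean of 3 per line. In both panels the S2-028 libraries lie above the S2-007 libraries, and those of S2-020 lie lowest, near a ratio of 1.

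Over the 10 tested genes nearest to CEACAM6 that are not among the 9, the median log2 fold change was -0.66 in S2-020 against S2-007 and -0.08 in S2-028 against S2-007. For CEACAM5 the neighbours' medians were -0.48 and -0.26, and over the 20 nearest genes those of both lay between 0.07 and 0.12. LOC112268252 (NCBI gene 112268252), an uncharacterized gene singled out after its values were seen, has its midpoint within the span of CEACAM6. That midpoint lies 49.44 kb from the CEACAM5 start. Whether its reads came from CEACAM6 was not tested. LOC112268252 had 252, 192 and 153 reads in S2-007, 4, 5 and 8 in S2-020 and 96, 51 and 77 in S2-028. Its log2 fold change was -5.16 in S2-020 and -1.15 in S2-028, each against S2-007. CEACAM3, on the far side of CEACAM6, was at 0.144 to 0.378 CPM on average, and CEACAM4 at 0.735 to 1.1. The 10 neighbours of CEACAM1 had medians of 0.27 and 0.66 in S2-028 and S2-020 against S2-007, on the other side of 0 from CEACAM1 itself.

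**Figure D3:**
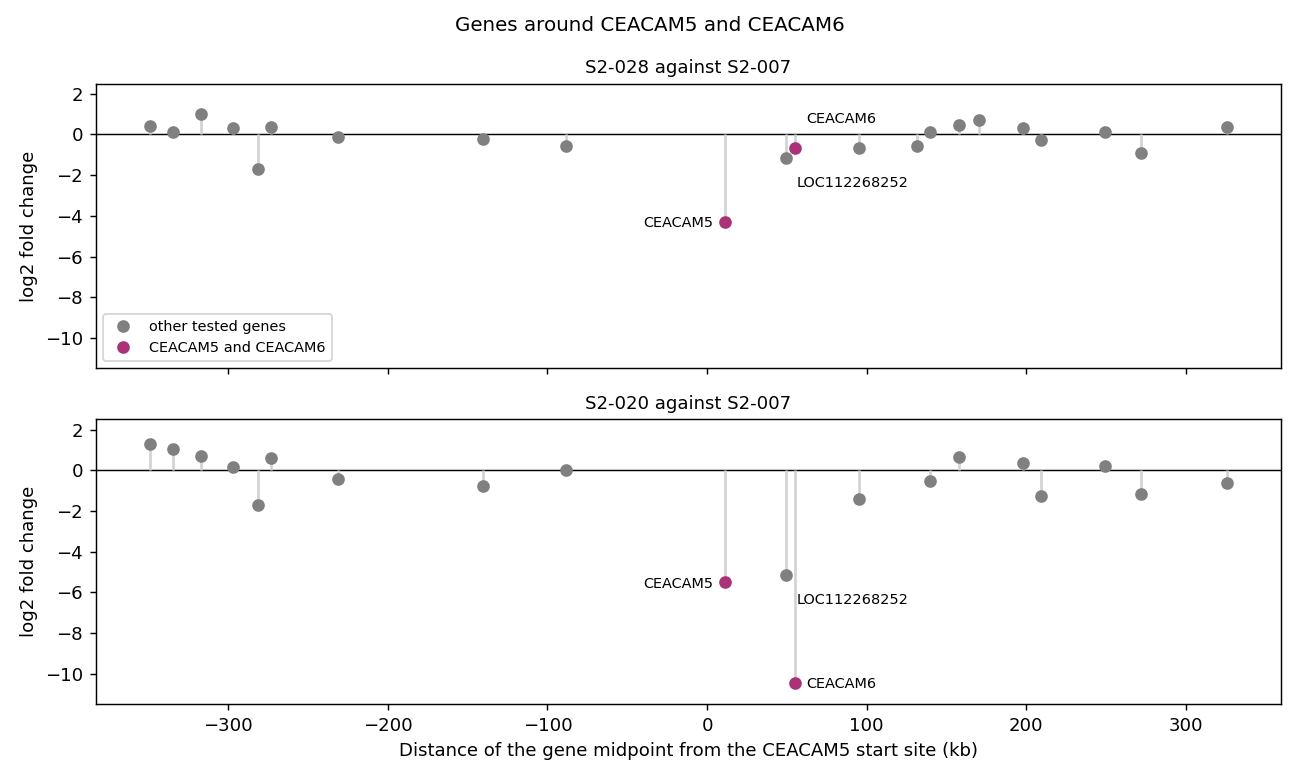
Log2 fold change of every tested gene around the CEACAM5 start site, placed by the distance of its midpoint in kb, in S2-028 (top) and S2-020 (bottom) against S2-007. CEACAM5 is the lowest point of the upper panel at -4.30. In the lower panel CEACAM6 is lowest at -10.45, and CEACAM5 (-5.51) and LOC112268252 (-5.16) lie close together.

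CEACAM7, best known from the colon, held 4, 4 and 3 reads in S2-007, 4, 8 and 0 in S2-020 and 1, 4 and 0 in S2-028. These are at or near the floor of 3 reads, the lines overlapped, and the expression filter left the gene out of every test, so that no difference was detectable at this depth.

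CEACAM19 (NCBI gene 56971), a distant member of the family that lies 2137 kb beyond CEACAM1, went its own way. It had 1.00, 0.927 and 0.883 CPM in S2-007, 0.404, 0.252 and 0.530 in S2-020 and 4.85, 4.57 and 4.71 in S2-028. S2-028 was highest and S2-020 lowest, with no overlap between lines. The log2 fold change was 2.33 in S2-028 against S2-007 (standard error 0.207, edgeR adjusted p = 8.39e-09), -1.28 in S2-020 against S2-007 (standard error 0.371, edgeR adjusted p = 0.00863) and 3.58 in S2-028 against S2-020 (standard error 0.258, edgeR adjusted p = 8.59e-10). Its decrease in S2-020, which rests on 21 to 38 reads per library, was not called against a 1.5-fold null (edgeR adjusted p = 0.0804). Of its 10 nearest genes, 6 were called higher and 1 lower in S2-028 against S2-007, with a median of 0.94. Of all genes, 10.2% were called higher and 8.19% lower in this comparison. In S2-020 against S2-007 and in S2-028 against S2-020 the neighbours' medians were 0.18 and 0.16, where CEACAM19 itself was at -1.28 and 3.58. Over the 20 nearest genes, the medians were 0.82 in S2-028 against S2-007, 0.53 in S2-020 against S2-007 and 0.04 in S2-028 against S2-020. The part of the neighbourhood in the CEACAM19 result was not tested.

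MSLN (NCBI gene 10232, chromosome 16 from 760734 to 768865) was ordered differently from the CEA family. Its CPM was 112, 125 and 127 in S2-007, 39.4, 39.7 and 37.3 in S2-020 and 4.8, 4.06 and 3.97 in S2-028, so S2-028 was lowest and no lines overlapped. The log2 fold change was -4.82 in S2-028 (standard error 0.0888, edgeR adjusted p = 1.35e-19) and -1.68 in S2-020 (standard error 0.0601, edgeR adjusted p = 1.08e-14), each against S2-007, and -3.18 in S2-028 against S2-020 (standard error 0.101, edgeR adjusted p = 3.44e-15). Its 10 nearest genes had a median of -0.39 and -0.22 in S2-028 and S2-020 against S2-007. MUC16, its binding partner, moved the other way in S2-028, at 5.75 ± 1.89 CPM against 2.63 ± 0.189 in S2-007 (log2 fold change 1.13, edgeR adjusted p = 0.000249). In S2-020 MUC16 was lower than in S2-007, as MSLN was, at 0.839 ± 0.213 CPM (log2 fold change -1.68, edgeR adjusted p = 1.01e-05).

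The summed CPM of the markers of intestinal epithelium had the same order of lines as MSLN, at 256.7 to 277.5 in S2-007, 100.1 to 145.2 in S2-020 and 16.9 to 20.1 in S2-028. LGALS4 carried most of this sum in S2-007 (207 ± 6.11 CPM) and S2-020 (95.5 ± 17.9), but had 0.161 ± 0.141 CPM in S2-028. In S2-028 the sum came mostly from CDX2 (9.56 ± 1.17 CPM) and VIL1 (8.34 ± 0.621). VIL1 did not have the order of MSLN, with 8.67 ± 0.607 CPM in S2-007 and 5.87 ± 0.462 in S2-020. Mesothelial cells also express MSLN. Their marker WT1 stayed at 0.063 to 0.0804 CPM on average in every line, and the summed mesothelial markers were highest in S2-028 (51.2 to 57.0 CPM, against 14.3 to 14.7 in S2-007 and 9.31 to 11.9 in S2-020), mostly through CALB2. The part of these markers in the MSLN result was not tested.

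PSCA was scarce. The libraries had 0.721, 0.564 and 0.353 CPM in S2-007, 0.487, 0.337 and 0.808 in S2-020 and 1.35, 0.564 and 0.951 in S2-028, and all lines overlapped. None of the comparisons was called. The difference was 0.81 (95% interval -0.04 to 1.65) in S2-028 against S2-007, -0.05 (-0.96 to 0.87) in S2-020 against S2-007 and 0.82 (-0.05 to 1.69) in S2-028 against S2-020 on the log2 scale, with edgeR adjusted p of 0.145, 0.955 and 0.135. Without S2-028 replicate 2, its lowest library in that line, PSCA was called higher against S2-007 (1.07, edgeR adjusted p = 0.0470) and against S2-020 (1.10, 0.0464), and without S2-020 replicate 3 against S2-020 (1.21, 0.0488). A further limit is that 20.8% of its exon bases lie under a gene of the opposite strand.

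GPRC5A was abundant in every line. Its CPM was 889, 924 and 865 in S2-007, 504, 464 and 433 in S2-020 and 431, 351 and 422 in S2-028. S2-007 lay well above both other lines, which almost touched. The log2 fold change against S2-007 was -1.15 in S2-028 (standard error 0.0707, edgeR adjusted p = 2.58e-11) and -0.97 in S2-020 (standard error 0.0557, edgeR adjusted p = 1.89e-11). Between S2-028 and S2-020 it was -0.22 (95% interval -0.36 to -0.07, edgeR adjusted p = 0.0161), under the fold threshold. Of its relatives, GPRC5B was far higher in S2-028 (60.7 ± 8.08 CPM) and S2-020 (95.5 ± 7.86) than in S2-007 (2.83 ± 0.215), with log2 fold changes of 4.43 and 5.05 (edgeR adjusted p = 1.35e-17 and 2.18e-19). GPRC5C was lower in S2-028, at 20.4 ± 3.68 against 45.2 ± 2.32 CPM, and higher in S2-020, at 70.7 ± 8.92.

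TSPAN1 had 60.7, 66.0 and 63.1 CPM in S2-007, 11.1, 9.26 and 9.41 in S2-020 and 113, 113 and 102 in S2-028. S2-028 was highest and S2-020 lowest without overlap. The log2 fold change was 0.80 in S2-028 against S2-007 (standard error 0.0648, edgeR adjusted p = 2.22e-09), -2.71 in S2-020 against S2-007 (standard error 0.0808, edgeR adjusted p = 6.39e-16) and 3.47 in S2-028 against S2-020 (standard error 0.0803, edgeR adjusted p = 3.83e-17). TSPAN8, another tetraspanin of digestive tumours, was lower in both lines, at 58.3 ± 7.79 CPM in S2-028 and 26.4 ± 3.78 in S2-020 against 239 ± 11 in S2-007 (log2 fold changes -2.03 and -3.21, edgeR adjusted p = 2.19e-14 and 8.04e-17).

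**Figure D4:**
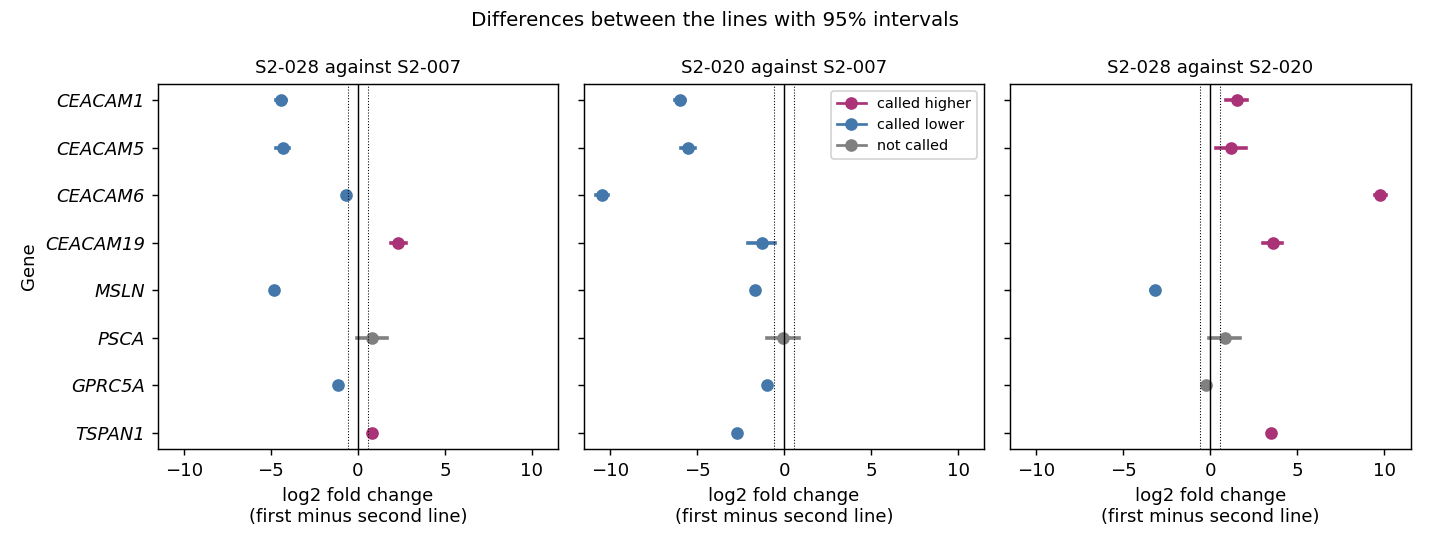
Log2 fold changes with 95% intervals of the 8 genes tested, in the 3 comparisons, with dotted lines at the fold threshold of about 1.5. Every gene lies left of 0 in S2-020 against S2-007, PSCA with an interval across 0, whereas CEACAM19 and TSPAN1 lie right of 0 in S2-028 against S2-007.

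Of the 9 genes, 8 passed the filter on low counts in each comparison. In S2-028 against S2-007, 7 of the 8 were called (edgeR adjusted p under 0.05, change of about 1.5-fold or more), against 18.4% of all genes tested. CEACAM19 and TSPAN1 were higher (2 of 8, against 10.2% of all genes), and 5 were lower (against 8.19%). The median absolute log2 fold change was 1.74 over the 8 genes and 0.35 over all genes. In S2-020 against S2-007, 7 were called, all of them lower, against 21.6% of all genes called in either direction and 12.1% lower (9.57% were higher), with a median log2 fold change of -2.19 (-0.053 over all genes). In S2-028 against S2-020, 6 were called, against 22.2% of all genes, with 5 higher (12.1% of all genes) and MSLN lower (10.1%). Lines were fully separated for 7 of the 8 genes in each comparison, against 43.3%, 48.5% and 48.9% of all genes. Each line enters 2 of the comparisons, so these counts share libraries and do not support each other. The 9 genes were chosen with earlier results of these data known, so these shares describe them and are no test.

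Across genes, levels were compared per kilobase of exon. In S2-007 the order was CEACAM6 (297 ± 36.0 CPM per kb), GPRC5A (117 ± 3.89), MSLN (46.9 ± 3.09), TSPAN1 (26.7 ± 1.1), CEACAM1 (6.86 ± 0.553) and CEACAM5 (4.19 ± 0.598), with PSCA, CEACAM19 and CEACAM7 at 0.310 or less. S2-020 was led by GPRC5A (60.9 ± 4.67 CPM per kb) and MSLN (15 ± 0.511), whereas S2-028 was led by CEACAM6 (188 ± 18.8), GPRC5A (52.4 ± 5.71) and TSPAN1 (46.2 ± 2.67). The ranges of 1 SD around GPRC5A and TSPAN1 overlapped in S2-028 on this scale, but not per kilobase of coding sequence (375 ± 40.8 and 151.5 ± 8.75). On that coding scale, CEACAM6 and GPRC5A were equal within their spread in S2-007 (851 ± 103 and 833 ± 27.9), and TSPAN1 passed MSLN there (87.5 ± 3.67 and 64.2 ± 4.23).

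The genes with the most similar pattern were found by the distance between centred log2 CPM over the 9 libraries, where 0 means the same profile. CEACAM1 was closest to MAOB, a monoamine oxidase gene (1.13), and then to CEACAM5 (1.27), its neighbour among the 9. CEACAM5 itself was closest to GALNT5 and MAOB (1.16 and 1.17). The nearest to CEACAM6, at larger distances of 2.33 and 2.79, were the glutathione peroxidase gene GPX2, with 142 CPM in S2-007, 0.156 in S2-020 and 54.2 in S2-028, and HLA-DRA, with 56.2, 0.081 and 24.4 CPM in the same order. MSLN was nearest to ACKR4 and SLC16A4 (0.468 and 0.599), CEACAM19 to BICDL2 and AIF1L (0.565 and 0.673), TSPAN1 to NUDT16L2P and MPZL2 (0.432 and 0.471) and GPRC5A to CLINT1 and B2M (0.182 and 0.274). PSCA was nearest to SRRM5 and OR13C8 (0.723 and 0.726), which were scarce as well. All of these distances rest on 3 lines and describe the profiles only.

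A list of 32 other surface antigen genes, also chosen with earlier results known, was compared in the same way, MUC16 among them. In S2-028 against S2-007 all 32 were tested, 10 were called higher and 9 lower, with a median log2 fold change of 0.26 (0.002 over all genes). Of all genes, 10.2% were called higher and 8.19% lower. AXL, EGFR and ROR1 had the smallest adjusted p among those higher (log2 fold changes 1.89, 1.46 and 2.06), and CDH17, GPC1 and TMPRSS4 among those lower (-7.23, -2.15 and -2.96). In S2-020 against S2-007, 3 of 31 were higher and 17 lower, against 9.57% and 12.1% of all genes, with a median of -1.18. The protease gene ST14 fell from 471 ± 29.6 to 7.26 ± 0.436 CPM, the integrin gene ITGB6 from 65.8 ± 8.17 to 1.13 ± 0.172 and EPCAM, the epithelial adhesion gene, from 527 ± 13.9 to 122 ± 2.37, with log2 fold changes of -6.05, -5.89 and -2.15 (edgeR adjusted p between 2.66e-21 and 1.57e-17). In S2-028 against S2-020, 19 of 32 were higher and 2 lower, against 12.1% and 10.1% of all genes.

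**Figure D5:**
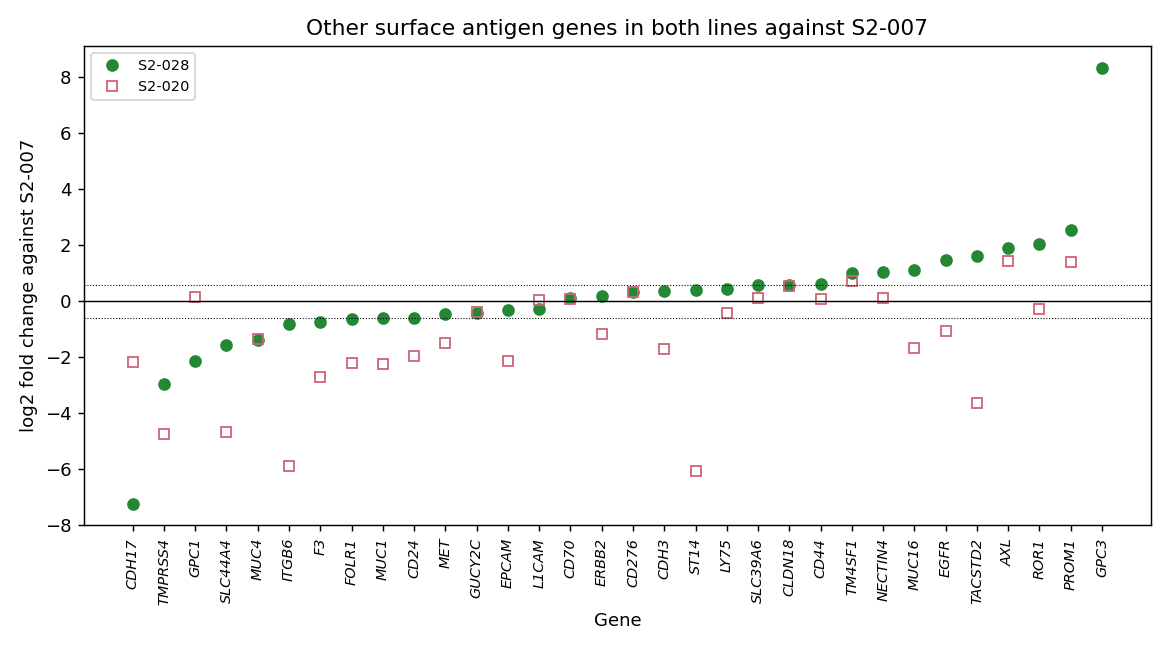
Log2 fold change against S2-007 of the other surface antigen genes in S2-028 (filled circles) and S2-020 (open squares), ordered by the value in S2-028. Both sets share the S2-007 libraries, and GPC3 has no square because it was not tested in S2-020 against S2-007. Most squares lie below 0, with ST14 at -6.05 and ITGB6 at -5.89 lowest among them.

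The remaining lists, also chosen with earlier results known, were those of relatives and of the machinery that the antigens use. Of 17 other CEA family genes, including the pregnancy-specific glycoproteins, 6 to 8 were tested, and in each comparison 1 was called, CEACAM20 in S2-028 against S2-007 and PSG9 in both others, all under 3 CPM. The shares called were 12.5%, 16.7% and 12.5% in S2-028 against S2-007, S2-020 against S2-007 and S2-028 against S2-020. Of all genes, 18.4%, 21.6% and 22.2% were called. Of 32 genes of GPI anchor synthesis and attachment, all were tested. In S2-028 against S2-007, 4 were higher and none lower (12.5% called, against 18.4% of all genes), with PIGW at 1.00 and PIGK at 0.80 on the log2 scale, and in S2-020 against S2-007, 4 were higher and 5 lower (28.1%, against 21.6% of all genes). Of the LY6/uPAR genes other than PSCA, 5 of 15 were called in S2-028 against S2-007 (4 higher, 1 lower, 33.3% against 18.4% of all genes). In S2-020 against S2-007, 6 of 16 were called (2 higher, 4 lower, 37.5% against 21.6%). LY6D was lower in both, from 33.1 ± 5.26 CPM in S2-007 to 3.22 ± 0.475 in S2-028 and 0.285 ± 0.217 in S2-020 (log2 fold changes -3.36 and -6.94), and LYPD1 was higher in both, from 35.4 ± 2.69 to 178 ± 6.09 and 76.1 ± 2.92 CPM. Of the other tetraspanins, 11 of 27 were called in S2-028 against S2-007 (6 higher, 5 lower, 40.7% against 18.4% of all genes) and 14 of 26 in S2-020 against S2-007 (6 higher, 8 lower, 53.8% against 21.6%). Of the retinoic acid genes listed beside GPRC5A, 10 of 18 were called in S2-028 against S2-007 (5 higher, 5 lower, 55.6% against 18.4% of all genes). In S2-020 against S2-007, 12 of 17 were called (3 higher, 9 lower, 70.6% against 21.6%). In S2-028 against S2-020, 22.2% of all genes were called. The tetraspanins were near that share, with 7 of 26 called (6 higher, 1 lower, 26.9%). So were the GPI anchor genes, with 7 of 32 (6 higher, 1 lower, 21.9%). The LY6/uPAR genes had 7 of 14 called (5 higher, 2 lower, 50%) and the retinoic acid genes 11 of 18 (8 higher, 3 lower, 61.1%).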

How the data were processed

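RNA-seq counts of 9 libraries (3 per line) were analysed. Per the paper and the labels, the libraries were strand-specific and poly(A)-selected, and the reads were trimmed with Trimmomatic 0.39 and aligned with BWA 0.7.17 against GRCh38.p14. What the authors deposited is a table with the raw count of mapped reads per gene, not normalized, and 18 columns of normalized values, which were not used. The counting tool, its use of strand and its treatment of reads with several matches are not given in the sources used here, which bears on the CEACAM paralogs. BWA does not join reads across introns. Table rows without a gene name (2) were dropped.

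The tests were run in edgeR 4.0.16 under R 4.3.3 (glmQLFit and glmQLFTest, TMM, filterByExpr with its minimum count at 10 and total at 15). Each fit held only the 6 libraries it compared, with Benjamini-Hochberg adjustment over all genes tested. A gene was called when its adjusted p was under 0.05 and it had changed about 1.5-fold or more, as the paper did. Standard errors are the absolute log2 fold change divided by the root of F. Printed CPM use TMM factors of all 9 libraries. Counts of replicates of a line differed by more than counting error (mean chi-square per gene at least 7.95 for each pair). This does not show that they came from separate cultures or preparations. The fit was tested on simulated data. A true log2 change of 1 was recovered for 60.6% of changed genes in S2-028 against S2-007. The share was 51.5% in S2-020 against S2-007 and 47% in S2-028 against S2-020. Among genes of at least 1 CPM, these shares were 82.6%, 76.7% and 81.1%.

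Coordinates are those of RefSeq, lengths and shared words those of GENCODE v44. The members and lists were chosen with earlier results of these data known. Genes named beside the 9 are the 2 nearest in pattern to each and at most 3 called genes per list, comparison and direction, those with the smallest adjusted p; MUC16 and the markers come from their lists, and CEACAM3, CEACAM4 and LOC112268252 were added after their values were seen. Alternatives were DESeq2 1.42.0, a likelihood ratio test, other normalizations and filters, 1 fit of all 9 libraries, a replicate block, a 1.5-fold null and leaving out each library. Counting error and depth limit genes with few reads, with a floor of 3 reads, which accounts for counting error alone because duplicate molecules cannot be recognized.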

Additional observations from a re-analysis of the deposited data

How the results depend on the processing

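The 8 genes tested gave 24 log2 fold changes, each recomputed under 15 alternatives. Of these 360 values, 346 kept their direction and their side of the threshold, 7 lost the call, 3 gained it and 4 changed sign. Those that lost or gained it concerned CEACAM5 in S2-028 against S2-020, CEACAM6 in S2-028 against S2-007, CEACAM19 in S2-020 against S2-007 and PSCA, with the values given above. The sign changed for PSCA in S2-020 against S2-007, which ranged from -0.44 to 0.23 as single libraries were omitted. Against a 1.5-fold null, the genes called fell to 2977 in S2-028 against S2-007 (1674 higher, 1303 lower), to 3639 in S2-020 against S2-007 (1628 higher, 2011 lower) and to 3638 in S2-028 against S2-020 (2005 higher, 1633 lower), because this test asks for a larger change. With the 20 nearest genes in place of 10, 7 of the 27 medians of neighbouring genes changed sign. In S2-028 against S2-007 they became 0.12 for CEACAM5, 0.12 for CEACAM6, 0.01 for CEACAM7 and -0.15 for TSPAN1, and in S2-020 against S2-007 they became 0.07, 0.09 and 0.07 for CEACAM5, CEACAM6 and CEACAM7. Between lines, the labels link libraries by replicate number only. The correlation of same-numbered deviations was between -0.022 and 0.014, and a fit with a replicate block called 4865, 5650 and 5716 genes against 4858, 5769 and 5788 without it. A batch that runs across these numbers or coincides with a line would not show in these values. With few reads in PSCA and CEACAM7, in the S2-020 libraries of CEACAM1, CEACAM5, CEACAM6 and CEACAM19, and in the S2-028 libraries of CEACAM5, depth limits what can be said of them.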
